A study of Homo sapiens with 4 samples.

Results

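U87, an established human glioblastoma cell line, was profiled by bulk RNA-seq in hypoxia and in normoxia, and the whole gene table of the wild-type (WT) pair is described here. The members were all rows of the WT table with a usable gene symbol, 18899 of 18964 rows, after 12 rows whose symbol had become a date and 53 whose symbol was a bare number were left out. The hypoxia group was U87 WT cells in 1% O2 and the normoxia group was U87 WT cells in normoxia, with 1 library in each. Both were kept at 37 °C with 5% CO2 in medium with 10% serum, and neither carried an shRNA. The other 2 of the 4 libraries in the series came from U87 cells with a scrambled shRNA (shScr) or an shRNA against ALKBH5 (shALKBH5). Both were in hypoxia and were deposited in a table normalised separately. The sources used here give no duration of hypoxia. With 1 library a side, no difference below has a replicate check, and every count of genes is a count by size.

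Levels are FPKM, a count of fragments corrected for gene length and library size, as the authors deposited them. A change is log2(FPKM + 1) in hypoxia minus normoxia, a scale that understates the change of genes with low levels. A gene is called higher or lower where this change reached 2-fold and its mean FPKM was at least 1. Below, a number in brackets after a pair of levels is this log2 change, with a remark where its direction or its call is lost when centred on the median gene or under TPM. The filter kept 11050 genes and left 7849 under it, 2348 of them listed at 0 in both libraries. The number of reads in each WT library is unknown, so no counting error can be given for a level. The 2 libraries are bulk RNA, so fewer cells of a type and less RNA per cell cannot be told apart.

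The label of the line was checked against markers. VIM and CD44, markers of mesenchymal glioblastoma cells, were abundant, with VIM at 4494 FPKM in hypoxia against 3079 FPKM in normoxia and CD44 at 238 FPKM in hypoxia against 277 FPKM in normoxia. Astrocyte and glioma stem markers differed in level. Near 0 were GFAP at 0.04 FPKM in hypoxia against 0.05 FPKM in normoxia and S100B at 0.06 FPKM in hypoxia against 0.06 FPKM in normoxia. SOX2 was also near 0, at 0.04 FPKM in hypoxia against 0.02 FPKM in normoxia. NES was at 3.28 FPKM in hypoxia against 2.93 FPKM in normoxia. SOX9 was at 6.63 FPKM in hypoxia against 5.86 FPKM in normoxia and SLC1A3 at 6.30 FPKM in hypoxia against 7.07 FPKM in normoxia. Of 16 glioblastoma and mesenchymal markers 8 passed the filter, with 1 called higher and none lower. The called gene was CHI3L1, which was scarce, at 2.44 FPKM in hypoxia against 0.43 FPKM in normoxia (1.27). EGFR was at 16.03 FPKM in hypoxia against 9.64 FPKM in normoxia (0.68). MET was at 33.76 FPKM in hypoxia against 43.15 FPKM in normoxia (-0.345, above 0 when centred). OLIG2 was at 0.27 FPKM in hypoxia against 1.35 FPKM in normoxia. PTPRZ1 was listed at 0 in hypoxia and at 0.16 FPKM in normoxia. Some defining markers of other cells, among them AIF1 and CDH5, were listed at 0 in both libraries. PTPRC, the marker of white blood cells, was at 0.06 FPKM in hypoxia against 0.23 FPKM in normoxia. Some lists of other cells had members that were not near 0. Of the 10 endothelial markers 3 passed the filter, with 2 called higher and 1 lower. PECAM1 was at 2.50 FPKM in hypoxia against 0.69 FPKM in normoxia (1.05) and TEK at 2.39 FPKM in hypoxia against 0.57 FPKM in normoxia (1.11). KDR was at 2.20 FPKM in hypoxia against 15.2 FPKM in normoxia (-2.34). The 12 microglia and macrophage markers summed to 349 FPKM in hypoxia and 292 FPKM in normoxia, with 3 past the filter. CD68 gave most of that sum, and CSF1R was at 2.89 FPKM in hypoxia against 1.32 FPKM in normoxia (0.75). The 10 neuron markers summed to 116 FPKM in hypoxia and 84.1 FPKM in normoxia, with 5 past the filter and none called, and TUBB3, a tubulin gene, gave most of the sum. Of the 10 oligodendrocyte markers CNP passed the filter, at 33.5 FPKM in hypoxia against 52.9 FPKM in normoxia (-0.64). The 11 fibroblast and pericyte markers had a summed level of 438 FPKM in hypoxia and 96.1 FPKM in normoxia, with 4 of the 6 past the filter called higher, none lower and a median of 1.67. COL1A1 and COL1A2 gave most of that sum. PDGFRB, a growth factor receptor gene of pericytes, was at 10.9 FPKM in hypoxia against 0.73 FPKM in normoxia (2.78), and CSPG4, a proteoglycan gene, at 18.1 FPKM in hypoxia against 7.45 FPKM in normoxia (1.18). FAP was at 3 FPKM in hypoxia against 1.15 FPKM in normoxia (0.90) and ACTA2 at 25.7 FPKM in hypoxia against 16.1 FPKM in normoxia (0.64). The markers THY1, LUM and DCN stayed under the filter. DCN was at 0.95 FPKM in hypoxia against 0.19 FPKM in normoxia, and THY1 was listed at 0 in hypoxia and at 0.03 FPKM in normoxia.

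Cells sense oxygen through prolyl hydroxylases that mark the alpha subunits of the hypoxia-inducible factors (HIF) for destruction by the VHL ubiquitin ligase. In low oxygen the hydroxylases slow down, the alpha subunits persist, pair with ARNT and bind short hypoxia response elements near their target genes. The classical targets move glucose toward lactate, restrain mitochondrial use of pyruvate, buffer acid, call in blood vessels and remodel the collagen matrix. Glioblastoma is known for hypoxic zones around necrosis, and U87 cells are a common model of them.

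Of the 11050 genes, 819 (7.41%) reached 2-fold on the higher side in hypoxia and 1628 (14.7%) on the lower side. The 2 sides had different shapes. At 4-fold or more there were 243 higher and 107 lower genes, at 8-fold 82 higher and 3 lower, and at 16-fold 29 higher and none lower among those past the filter. The lower genes were thus many and moderate, and the higher genes fewer and with a long tail. HSF4 and RRP8 lay just inside the rule, exactly at 2-fold, and TIMP2 (0.9997) and GPN3 (-0.9993) just outside it.

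The median gene stood at -0.35 in hypoxia, and changes can be read against it. Centred on the median gene, 1317 genes (11.9%) were higher and 633 (5.73%) lower. A lower gene whose deposited change lies above -1.35 is within 2-fold of the median gene, and a gene above 0.65 is called higher when centred. On a TPM (share of all transcripts) scale, which sets both libraries to the same total, the median gene was at -0.45, and 858 genes (7.23%) were higher and 2403 (20.3%) lower of 11864 past the filter. In the separately normalised shRNA pair, shALKBH5 minus shScr, both libraries were hypoxic. There the central 95% of 10925 genes lay between -1.05 and 0.89 on the same scale, while in the WT pair it lay between -1.66 and 1.87. The shRNA pair differs by a knockdown, so its spread is not that of like libraries.

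A few genes held more of the FPKM total in hypoxia. The 10 most abundant genes held 12.4% of the summed FPKM in hypoxia and 8.12% in normoxia, and the 100 most abundant held 37.1% in hypoxia and 29.5% in normoxia. Genes at least 2-fold higher held 21.5% of the sum in hypoxia and 6.67% in normoxia. Genes at least 2-fold lower held 4.51% in hypoxia and 13.3% in normoxia, a description that the calls themselves fix in direction. GAPDH, a glycolytic enzyme gene, had the highest level of all, at 13293 FPKM in hypoxia against 4288 FPKM in normoxia, a log2 change of 1.63. It was followed by TMSB10, which encodes an actin-binding thymosin, at 10899 FPKM in hypoxia against 3276 FPKM in normoxia, a log2 change of 1.73. The metallothionein gene MT2A was the most abundant gene of normoxia and differed little, at 8765 FPKM in hypoxia against 8559.9 FPKM in normoxia (0.03, below 0 under TPM). The actin gene ACTB, a common reference, was at 2205 FPKM in hypoxia against 2484 FPKM in normoxia (-0.17, above 0 when centred).

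**Figure D1:**
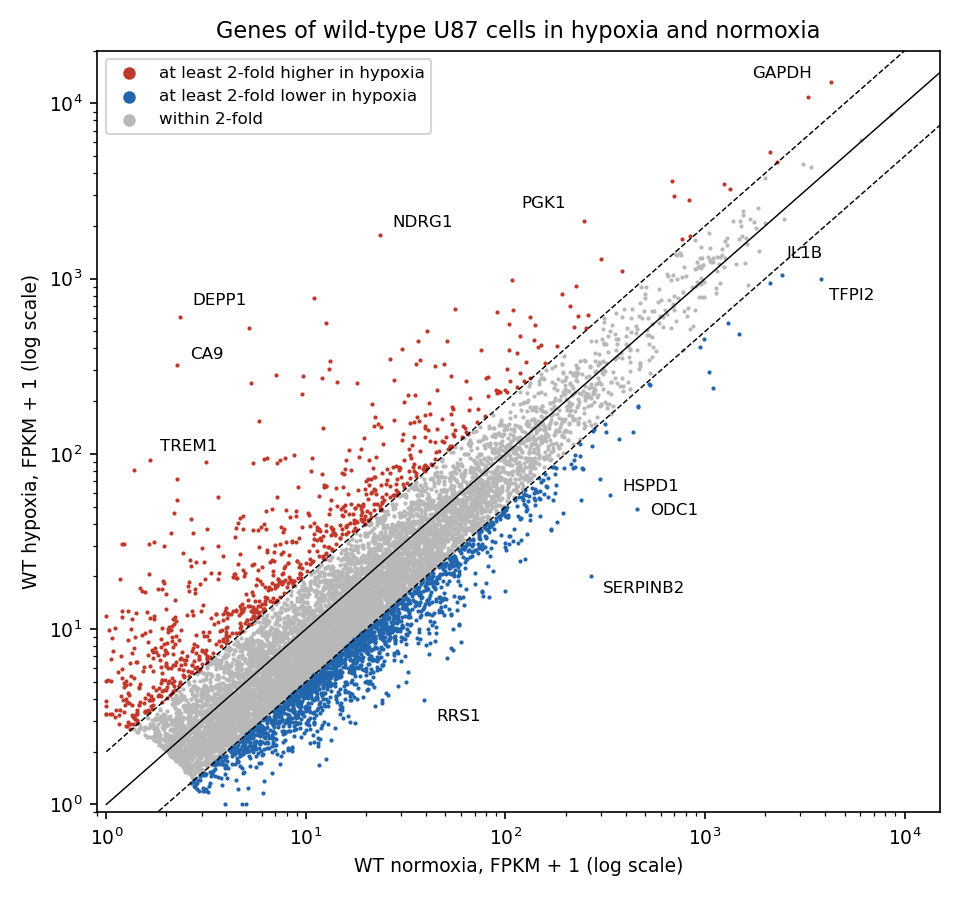
Each point is 1 of 11050 genes, with FPKM + 1 in WT normoxia on the x axis and in WT hypoxia on the y axis, both on log scales. The solid line marks equal levels and the dashed lines 2-fold differences; the 819 red genes above reach far from the line, with CA9 and DEPP1 at the left and NDRG1 and PGK1 at higher levels, while the 1628 blue genes below form a dense band close to the dashed line.

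The strongest single differences were on the higher side. DDIT4 encodes an inhibitor of the growth kinase mTORC1 and was at 560.1 FPKM in hypoxia against 11.6 FPKM in normoxia, a log2 change of 5.48. F3 encodes tissue factor, the starter of blood clotting, and was at 279.7 FPKM in hypoxia against 6.06 FPKM in normoxia, a log2 change of 5.31. RNASE4, a secreted ribonuclease gene, was at 71.1 FPKM in hypoxia against 1.25 FPKM in normoxia, a log2 change of 5.002. ZNF395, a zinc finger gene, was at 153 FPKM in hypoxia against 4.81 FPKM in normoxia, a log2 change of 4.72, the highest change of 288 ZNF genes past the filter, of which 5 were higher and 21 lower. TMEM45A, a membrane protein gene, was at 89.6 FPKM in hypoxia against 2.17 FPKM in normoxia, a log2 change of 4.84. DEPP1, a FOXO-responsive gene with the highest change among genes past the filter, was at 602 FPKM in hypoxia against 1.34 FPKM in normoxia.

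A set of genes was close to silent in normoxia and present in hypoxia. By a rule of at least 5 FPKM in one library and at most 0.1 FPKM in the other there were 6, all with the higher level in hypoxia. CDKN1C, a cyclin-dependent kinase inhibitor gene, was at 6.53 FPKM in hypoxia against 0.08 FPKM in normoxia. TIMP3, which encodes an inhibitor of matrix proteases, was at 5.72 FPKM in hypoxia against 0.06 FPKM in normoxia. SYT7, a calcium sensor gene for vesicle fusion, was at 9.19 FPKM in hypoxia against 0.10 FPKM in normoxia, and SYNDIG1, a synapse protein gene, was at 7.90 FPKM in hypoxia against 0.07 FPKM in normoxia. WISP2, a secreted matrix-associated protein gene, was at 10.8 FPKM in hypoxia and listed at 0 in normoxia, and BEND5 was at 8.95 FPKM in hypoxia against 0.03 FPKM in normoxia.

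On the linear scale the 2 largest differences on the lower side were those of secreted products. TFPI2, an inhibitor of serine proteases, was at 998 FPKM in hypoxia against 3802 FPKM in normoxia, a log2 change of -1.93. IL1B, which encodes the cytokine interleukin 1 beta, was at 1048 FPKM in hypoxia against 2435 FPKM in normoxia, a log2 change of -1.22, within 2-fold when centred. Among the lowest log2 changes were those of CYP1B1, a cytochrome P450 gene, at 6.78 FPKM in hypoxia against 52.1 FPKM in normoxia (-2.77), and GGCT, an enzyme gene of glutathione breakdown, at 4.01 FPKM in hypoxia against 30.6 FPKM in normoxia (-2.66). PPRC1, a coactivator gene of mitochondrial biogenesis, was at 3.75 FPKM in hypoxia against 27.9 FPKM in normoxia (-2.60), and TMEM97, a sterol-related membrane protein gene, at 2.66 FPKM in hypoxia against 21.2 FPKM in normoxia (-2.60). OAF was at 2.80 FPKM in hypoxia against 23.02 FPKM in normoxia (-2.66) and TAGLN3, a calponin-family gene, at 3.22 FPKM in hypoxia against 24.9 FPKM in normoxia (-2.62). All 6 were well expressed in normoxia and kept a measurable level in hypoxia.

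Of the oxygen sensor, feedback genes such as EGLN1 and HIF3A were at least 2-fold higher and the alpha subunit genes HIF1A and EPAS1 were not called. HIF1A, the alpha subunit gene, was at 121 FPKM in hypoxia against 129.9 FPKM in normoxia (-0.10, above 0 when centred), and EPAS1, which encodes the HIF-2 alpha subunit, at 43.5 FPKM in hypoxia against 57.9 FPKM in normoxia (-0.40). Neither reached 2-fold as deposited, centred or under TPM. HIF3A, whose products can restrain the other subunits, was at 10.4 FPKM in hypoxia against 1.15 FPKM in normoxia (2.41). EGLN1, the main prolyl hydroxylase gene and itself a HIF target, was at 44.3 FPKM in hypoxia against 12.1 FPKM in normoxia (1.79). EGLN2 was at 53.5 FPKM in hypoxia against 68.5 FPKM in normoxia (-0.35, above 0 when centred). EGLN3, the third hydroxylase, lay just under the filter at 1.83 FPKM in hypoxia against 0.05 FPKM in normoxia. CITED2, which competes with HIF for its coactivator, was at 259 FPKM in hypoxia against 104 FPKM in normoxia (1.31). ARNT was at 14.9 FPKM in hypoxia against 12.4 FPKM in normoxia (0.24), and its relative ARNT2 at 4.68 FPKM in hypoxia against 13.1 FPKM in normoxia (-1.31, within 2-fold when centred). VHL was at 11.8 FPKM in hypoxia against 13.6 FPKM in normoxia (-0.19, above 0 when centred).

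Of 49 listed HIF-responsive genes 46 passed the filter, and 44 of these were at least 2-fold higher, against 7.41% of all genes. The median of the list was 3.06, against -0.35 over all genes. The list was drawn up for genes known to respond and with earlier results of these data known, so its direction is no independent evidence. The exceptions were RORA at 5.66 FPKM in hypoxia against 2.36 FPKM in normoxia (0.99) and STC1, a calcium-regulating hormone gene, at 1033 FPKM in hypoxia against 649 FPKM in normoxia (0.67), a value singled out after it was seen. Both passed 2-fold when centred. The lipid droplet regulator gene HILPDA was at 771 FPKM in hypoxia against 9.93 FPKM in normoxia, and NDRG1 at 1769 FPKM in hypoxia against 22.4 FPKM in normoxia. ADM, which encodes the vessel-dilating peptide adrenomedullin, was at 256 FPKM in hypoxia against 13.3 FPKM in normoxia (4.16). VEGFA, the vessel growth factor gene, was at 621 FPKM in hypoxia against 257 FPKM in normoxia (1.27). VEGFA was thus abundant in both conditions, whereas ADM was scarce in normoxia.

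Promoter windows are shown for 6 list members with large changes and a RefSeq window, because the list is defined by a factor with a known core site. Some genes were also left out by genomic location. Among them was NDRG1, whose change was larger than those of ANGPTL4, DDIT4, TMEM45A and SLC2A1. Each window runs from 250 bases before to 50 bases after the start of the gene, in RefSeq on GRCh38.p14. Sequences read 5′ to 3′ on the strand of the gene. The windows are chr9:35673678-35673977 on the plus strand for CA9, chr7:45921223-45921522 on the minus strand for IGFBP3, chr19:8363905-8364204 on the plus strand for ANGPTL4, chr10:72273674-72273973 on the plus strand for DDIT4, chr3:100492369-100492668 on the plus strand for TMEM45A and chr1:42958819-42959118 on the minus strand for SLC2A1. Capitals mark ACGTG or GCGTG, the HIF core, on either strand, so that a match on the opposite strand reads CACGT or CACGC.
CA9: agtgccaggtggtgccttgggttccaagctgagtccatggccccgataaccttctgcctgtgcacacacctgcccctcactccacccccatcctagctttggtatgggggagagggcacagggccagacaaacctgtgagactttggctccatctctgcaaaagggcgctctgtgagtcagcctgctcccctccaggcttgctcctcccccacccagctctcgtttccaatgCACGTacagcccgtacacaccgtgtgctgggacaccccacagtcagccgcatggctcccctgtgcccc
IGFBP3: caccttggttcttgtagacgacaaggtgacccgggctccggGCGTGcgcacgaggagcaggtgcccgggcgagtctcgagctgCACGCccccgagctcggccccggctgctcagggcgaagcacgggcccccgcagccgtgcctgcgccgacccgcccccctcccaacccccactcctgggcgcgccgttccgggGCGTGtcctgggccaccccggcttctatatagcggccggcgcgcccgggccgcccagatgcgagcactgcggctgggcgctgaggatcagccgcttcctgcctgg
ANGPTL4: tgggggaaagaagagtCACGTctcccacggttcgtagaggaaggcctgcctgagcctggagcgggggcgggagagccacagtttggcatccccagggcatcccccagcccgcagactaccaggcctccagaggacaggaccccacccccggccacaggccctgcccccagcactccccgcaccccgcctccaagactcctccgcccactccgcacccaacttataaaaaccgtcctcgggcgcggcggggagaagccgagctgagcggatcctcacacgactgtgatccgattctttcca
DDIT4: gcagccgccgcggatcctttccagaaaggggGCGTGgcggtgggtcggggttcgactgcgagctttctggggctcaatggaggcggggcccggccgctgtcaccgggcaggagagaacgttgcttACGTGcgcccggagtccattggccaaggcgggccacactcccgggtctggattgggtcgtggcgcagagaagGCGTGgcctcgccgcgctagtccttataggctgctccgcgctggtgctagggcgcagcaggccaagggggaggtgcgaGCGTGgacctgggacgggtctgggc
TMEM45A: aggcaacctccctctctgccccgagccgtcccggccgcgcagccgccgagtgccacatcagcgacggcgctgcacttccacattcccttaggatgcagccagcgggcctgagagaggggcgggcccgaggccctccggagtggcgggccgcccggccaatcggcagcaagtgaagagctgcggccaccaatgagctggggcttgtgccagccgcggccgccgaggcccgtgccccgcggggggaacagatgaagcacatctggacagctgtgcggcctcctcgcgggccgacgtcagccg
SLC2A1: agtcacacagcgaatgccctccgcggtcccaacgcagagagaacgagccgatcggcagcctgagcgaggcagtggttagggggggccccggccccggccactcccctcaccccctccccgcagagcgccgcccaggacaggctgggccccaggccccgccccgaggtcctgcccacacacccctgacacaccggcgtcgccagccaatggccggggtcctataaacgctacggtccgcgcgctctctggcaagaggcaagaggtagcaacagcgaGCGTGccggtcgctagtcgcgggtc

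CA9 had 1 match, on the opposite strand 18 bases before the start, and ANGPTL4 had 1 match 234 bases before the start. DDIT4 had 4 matches, 3 of them before the start and 1 at 25 bases after it. IGFBP3 had 3 matches, all of the GCGTG form. SLC2A1 had 1 match, 25 bases after the start, and TMEM45A had none. The core is common. A match was found in 48.4% of all 35116 windows, and in 61.5% of the 13012 windows of genes past the filter. Among the windows of HIF-responsive genes it was 43 of 48, or 89.6%, and the ACGTG form alone was in 58.3% of these, against 21.4% of all windows and 26.1% of the windows of genes past the filter. It was also in 53.3% of windows of ribosome biogenesis genes and 46.4% of those of glycolytic genes. The base composition differed too, with 68.3% G and C in the list, 57.5% in all windows and 63.8% in those of genes past the filter. Over all genes at least 2-fold higher, ACGTG was in 27.7% of windows, against 25.8% in genes within 2-fold and 26.8% in genes at least 2-fold lower. Either form was in 58.6% of windows of higher genes, 60.95% within 2-fold and 65.9% of lower genes. A match is a description of the letters and not a site, and sequence outside these windows was not searched.

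Most genes of glucose uptake and breakdown were higher. The 16 genes from glucose phosphate isomerase to lactate dehydrogenase summed to 36767 FPKM in hypoxia and 12442 FPKM in normoxia, a ratio of 2.96, and held 7.01% of all FPKM in hypoxia and 2.55% in normoxia. Of the 15 that passed the filter 11 were called higher and none lower, with a median of 1.56. At the entry, the glucose transporter gene SLC2A1 was at 338 FPKM in hypoxia against 12.2 FPKM in normoxia (4.69) and SLC2A3 at 140.4 FPKM in hypoxia against 11.2 FPKM in normoxia (3.53). The first step is run by hexokinases, of which HK2 was at 63.96 FPKM in hypoxia against 14.3 FPKM in normoxia (2.09) and HK1 at 271 FPKM in hypoxia against 131 FPKM in normoxia (1.04, and 0.94 under TPM).

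At steps with several isoenzymes, the isoenzymes differed in size or direction of change. Among the phosphofructokinases, PFKP was at 271 FPKM in hypoxia against 78.6 FPKM in normoxia (1.77) and PFKL at 57.8 FPKM in hypoxia against 18.9 FPKM in normoxia (1.56), while PFKM, the muscle form, was at 13.4 FPKM in hypoxia against 27.7 FPKM in normoxia (-0.999), just short of 2-fold lower. ALDOC was at 218 FPKM in hypoxia against 8.54 FPKM in normoxia (4.52), and ALDOA, by far the more abundant aldolase, at 3473 FPKM in hypoxia against 1246 FPKM in normoxia (1.48). ENO2 was at 346 FPKM in hypoxia against 25.5 FPKM in normoxia (3.71), and ENO1 at 5263 FPKM in hypoxia against 2125 FPKM in normoxia (1.31). The scarcer enzyme thus had the larger change at both steps and remained the smaller part of the sum. PGK1, the first ATP-yielding enzyme of the pathway, was at 2148 FPKM in hypoxia against 245 FPKM in normoxia (3.13), the highest change among the steps that have 1 main gene. TPI1 was at 2814 FPKM in hypoxia against 826 FPKM in normoxia (1.77) and PGAM1 at 1110.4 FPKM in hypoxia against 384 FPKM in normoxia (1.53). GPI at 140.4 FPKM in hypoxia against 87.1 FPKM in normoxia (0.68) and PKM at 3756 FPKM in hypoxia against 1987 FPKM in normoxia (0.92) did not reach 2-fold as deposited and did when centred.

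At the lactate end the enzyme forms differed in direction. LDHA, which favours the making of lactate, was at 3607 FPKM in hypoxia against 684 FPKM in normoxia (2.40), and LDHB, which favours its use, at 256 FPKM in hypoxia against 410.2 FPKM in normoxia (-0.68). SLC16A3, the lactate exporter gene, was at 276 FPKM in hypoxia against 8.64 FPKM in normoxia (4.85), while SLC16A1, a carrier that works in both directions, was at 26.1 FPKM in hypoxia against 28.2 FPKM in normoxia (-0.11, above 0 when centred). Their shared chaperone gene BSG was at 422 FPKM in hypoxia against 317 FPKM in normoxia (0.41).

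**Figure D2:**
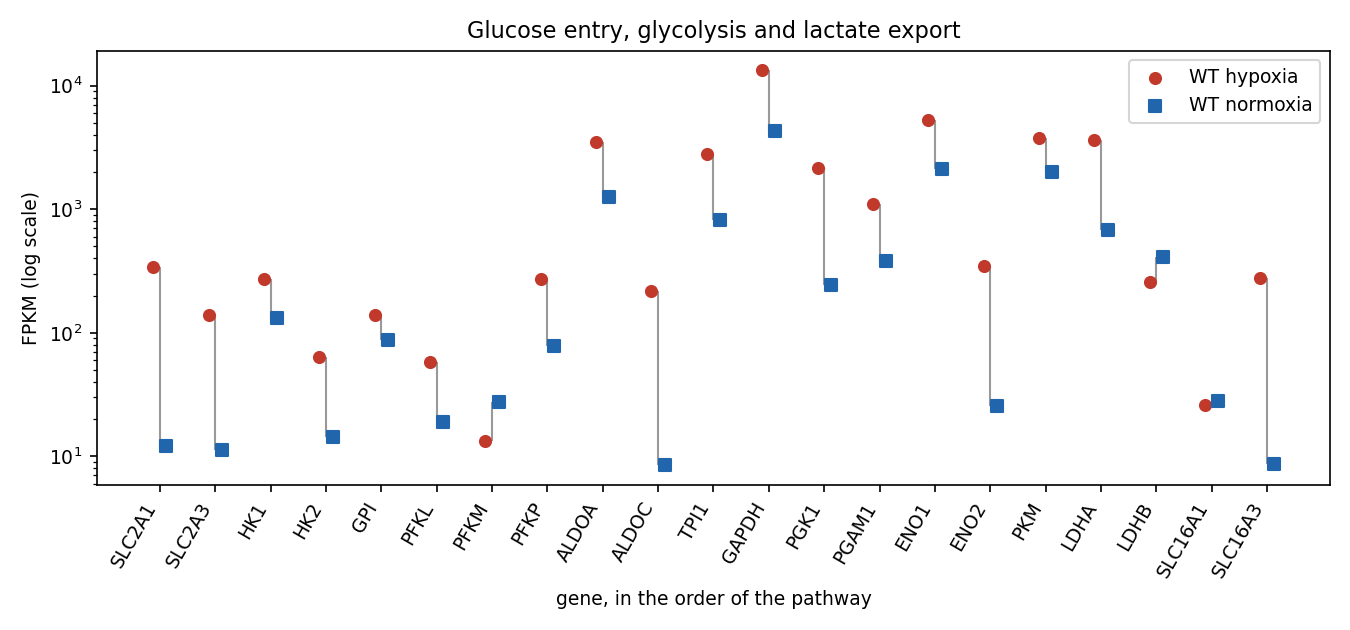
FPKM on a log scale for genes of glucose entry, glycolysis and lactate export in pathway order, with WT hypoxia as red circles and WT normoxia as blue squares, 1 library each. The circle lies above the square for all genes drawn except PFKM, LDHB and SLC16A1, and the longest lines belong to SLC2A1, ALDOC and SLC16A3.

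The switches that send pyruvate away from mitochondria split by member. PDK1, a kinase that shuts pyruvate dehydrogenase, was at 55.7 FPKM in hypoxia against 2.64 FPKM in normoxia (3.96) and PDK3 at 36.2 FPKM in hypoxia against 3.86 FPKM in normoxia (2.94). PDK2 was at 9.75 FPKM in hypoxia against 12.3 FPKM in normoxia (-0.31, above 0 when centred), and PDK4 was near 0 at 0.07 FPKM in hypoxia against 0.04 FPKM in normoxia. The opposing phosphatase gene PDP2 was at 1.98 FPKM in hypoxia against 9.25 FPKM in normoxia (-1.78) and PDP1 at 7.01 FPKM in hypoxia against 14.7 FPKM in normoxia (-0.97). The pyruvate carrier is made of a pair of subunits, and these went opposite ways, with MPC2 at 272 FPKM in hypoxia against 81.03 FPKM in normoxia (1.74) and MPC1 at 11.03 FPKM in hypoxia against 17.97 FPKM in normoxia (-0.66). Of the enzymes that set fructose 2,6-bisphosphate, the strongest activator of phosphofructokinase, PFKFB4 was at 88.3 FPKM in hypoxia against 6.19 FPKM in normoxia (3.63) and PFKFB3 at 91.6 FPKM in hypoxia against 14.9 FPKM in normoxia (2.54). PFKFB2 was at 0.63 FPKM in hypoxia against 2.21 FPKM in normoxia (-0.98), and TIGAR, which breaks the activator down, at 1.69 FPKM in hypoxia against 2.93 FPKM in normoxia (-0.55).

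Glycogen genes were called in both directions. Of 18 past the filter 7 (38.9%) were higher and 3 (16.7%) lower, against 7.41% and 14.7% of all genes. The lower share was thus near that of all genes, and when centred 8 were higher and 1 lower. The synthase gene GYS1 was at 123 FPKM in hypoxia against 18.6 FPKM in normoxia (2.65), the branching enzyme gene GBE1 at 155 FPKM in hypoxia against 26.7 FPKM in normoxia (2.49) and the targeting subunit gene PPP1R3C at 91.4 FPKM in hypoxia against 6.39 FPKM in normoxia (3.64). The breakdown enzyme gene PYGL was also higher, at 58.5 FPKM in hypoxia against 15.3 FPKM in normoxia (1.87). GYG1, which encodes glycogenin, the primer of the chain, was lower, at 11.5 FPKM in hypoxia against 47.2 FPKM in normoxia (-1.95), and so was PHKA1, a phosphorylase kinase subunit gene, at 1.42 FPKM in hypoxia against 5.14 FPKM in normoxia (-1.34, within 2-fold when centred). The pentose phosphate pathway stayed close to the median gene, with 0 of 7 higher and 1 lower, RPIA at 4 FPKM in hypoxia against 9.31 FPKM in normoxia (-1.04, within 2-fold when centred).

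Among acid-handling genes the 3 highest changes were of carbonic anhydrases, which turn carbon dioxide into bicarbonate. The cell-surface forms CA9, at 322 FPKM in hypoxia against 1.27 FPKM in normoxia, and CA12, at 269.6 FPKM in hypoxia against 11.02 FPKM in normoxia (4.49), were the largest members, and the mitochondrial form CA5B was at 10.5 FPKM in hypoxia against 3.01 FPKM in normoxia (1.52). The sodium bicarbonate transporter gene SLC4A7 was lower, at 4.23 FPKM in hypoxia against 12.99 FPKM in normoxia (-1.42). Of 13 genes of the list past the filter 3 were higher and 1 lower.

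Few genes of the respiratory chain reached 2-fold. Of 36 complex I subunit genes 1 was at least 2-fold higher, NDUFB8 at 259 FPKM in hypoxia against 122 FPKM in normoxia (1.08, and 0.98 under TPM), and none lower. None of the 4 complex II, 9 complex III and 11 complex IV genes past the filter was called either way. Of 15 ATP synthase genes 1 was lower, ATP5MC1 at 62.5 FPKM in hypoxia against 139 FPKM in normoxia (-1.14, within 2-fold when centred). The medians were -0.21 for complex I, -0.34 for complex II, -0.17 for complex III and -0.30 for ATP synthase, and all 4 turned to the higher side when centred. Complex IV had a median of 0.24, with 10 of its 11 genes above 0. COX4I2, the subunit form that replaces COX4I1 in low oxygen in other cells, was listed at 0 in hypoxia and at 0.08 FPKM in normoxia. COX4I1 was at 604 FPKM in hypoxia against 384 FPKM in normoxia (0.65). LONP1, the protease gene known to clear COX4I1, was at 102 FPKM in hypoxia against 52.5 FPKM in normoxia (0.94), and NDUFA4L2 was scarce, at 1.01 FPKM in hypoxia against 0.50 FPKM in normoxia.

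In the citric acid cycle 3 of 21 genes (14.3%) were at least 2-fold lower and 1 higher, a share of lower genes near the 14.7% of all genes. IDH3A, the catalytic subunit gene of NAD-linked isocitrate dehydrogenase, was at 9.27 FPKM in hypoxia against 43.8 FPKM in normoxia (-2.12), while IDH3G, a subunit of the same enzyme, was at 77.9 FPKM in hypoxia against 44.6 FPKM in normoxia (0.79). FH, the fumarase gene, was at 12.03 FPKM in hypoxia against 37.7 FPKM in normoxia (-1.57) and CS, the citrate synthase gene, at 43.3 FPKM in hypoxia against 97.99 FPKM in normoxia (-1.16, within 2-fold when centred). IDH2, the NADP-linked mitochondrial form, was at 49.6 FPKM in hypoxia against 17.99 FPKM in normoxia (1.41). Of 78 mitochondrial ribosomal protein genes 23 were lower and 1 higher, with a median of -0.70. When centred 6 were lower and 3 higher, against 5.73% and 11.9% of all genes. MRPL24 was at 30.9 FPKM in hypoxia against 108 FPKM in normoxia (-1.76) and MRPL3 at 43.2 FPKM in hypoxia against 148 FPKM in normoxia (-1.75). The higher gene was MRPS6 at 378 FPKM in hypoxia against 113 FPKM in normoxia (1.73), which shares its locus with SLC5A3, so the source of its reads is uncertain. Of 24 genes of mitochondrial protein import 5 (20.8%) were lower and none higher, against 14.7% and 7.41% of all genes. When centred 3 of these were lower. TIMM8A was at 3.76 FPKM in hypoxia against 12.2 FPKM in normoxia (-1.47).

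Of 10 genes of mitophagy and mitochondrial dynamics past the filter 2 were higher and 2 lower. BNIP3, a receptor that marks mitochondria for autophagy, was at 669 FPKM in hypoxia against 55.1 FPKM in normoxia (3.58), and BNIP3L at 395 FPKM in hypoxia against 29.3 FPKM in normoxia (3.71). FUNDC1, another such receptor, was at 13.3 FPKM in hypoxia against 18.3 FPKM in normoxia (-0.43). The fusion gene MFN2 was at 19.1 FPKM in hypoxia against 56.7 FPKM in normoxia (-1.52) and the fission gene DNM1L at 8.22 FPKM in hypoxia against 18.9 FPKM in normoxia (-1.11, within 2-fold when centred). PINK1, the kinase of the other mitophagy route, was at 59.5 FPKM in hypoxia against 36.8 FPKM in normoxia (0.68).

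Most genes of ribosome making were lower. Of 44 ribosome biogenesis genes with enough signal 35 were called lower, against 14.7% of all genes, with a median of -1.65, and 29 were lower when centred. RRS1, needed for the large subunit, was at 2.94 FPKM in hypoxia against 37.9 FPKM in normoxia (-3.30). RRP9, a protein of the U3 snoRNP that processes the small subunit RNA, was at 6.64 FPKM in hypoxia against 53.4 FPKM in normoxia (-2.83). RRP12 was at 2.92 FPKM in hypoxia against 23.1 FPKM in normoxia (-2.62), NOL6 at 3.33 FPKM in hypoxia against 24.2 FPKM in normoxia (-2.54) and NOP16 at 6.22 FPKM in hypoxia against 40.5 FPKM in normoxia (-2.52). The helicase gene DDX21 was at 9.66 FPKM in hypoxia against 57.3 FPKM in normoxia (-2.45). The gene on the other side was IMP3, also a U3 snoRNP gene, at 181 FPKM in hypoxia against 53.7 FPKM in normoxia (1.73), singled out after its value was seen.

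RNA polymerase I, which makes ribosomal RNA, and the proteins of the nucleolus followed, with 16 of 24 lower, 0 higher and a median of -1.27, or 10 lower when centred. CD3EAP, a polymerase I subunit gene, was at 1.95 FPKM in hypoxia against 15.6 FPKM in normoxia (-2.49) and POLR1B, another, at 1.39 FPKM in hypoxia against 10.5 FPKM in normoxia (-2.27). NOLC1, a nucleolar scaffold gene, was at 14.2 FPKM in hypoxia against 81.8 FPKM in normoxia (-2.45) and NOP56, a core protein of box C/D snoRNPs, at 17.3 FPKM in hypoxia against 79.3 FPKM in normoxia (-2.13). NPM1, the most abundant lower member, was at 407 FPKM in hypoxia against 942 FPKM in normoxia (-1.21, within 2-fold when centred). FBL, the methyltransferase of the same box C/D particles, was above 0 at 519.5 FPKM in hypoxia against 406 FPKM in normoxia (0.35), a gene singled out after its value was seen.

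The ribosomal proteins themselves lay apart from their assembly factors. None of 79 cytosolic ribosomal protein genes was at least 2-fold higher and 1 was lower, RPL23 at 555 FPKM in hypoxia against 1302 FPKM in normoxia (-1.23, within 2-fold when centred). The median was 0.19, and 63 of 79 lay above 0. They held 15.5% of the summed FPKM in hypoxia and 14.4% in normoxia. The range apart from RPL23 ran from RPL18 at 191 FPKM in hypoxia against 320.1 FPKM in normoxia (-0.74) to RPL10 at 812 FPKM in hypoxia against 499.8 FPKM in normoxia (0.70). The most abundant of 10 bins of mean FPKM over all genes, from 74.5 FPKM, had a median of -0.03. Ribosomal protein genes have many processed pseudogene copies, and the sources used here do not say how reads shared between copies were counted.

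**Figure D3:**
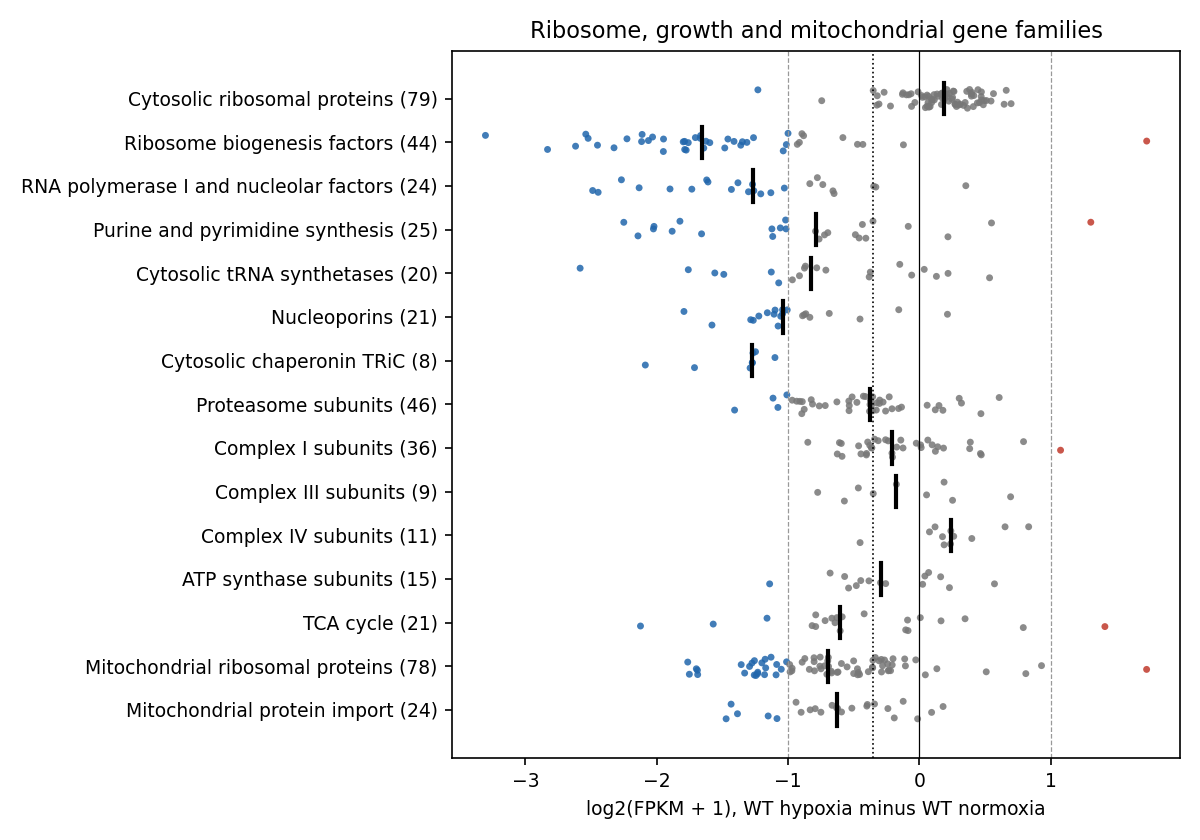
The x axis gives the change in log2(FPKM + 1), WT hypoxia minus WT normoxia, and each row is a gene family with 1 point per gene past the filter, the number of genes in brackets, red for at least 2-fold higher, blue for at least 2-fold lower and grey between. The thick bar is the family median, the dotted line the median of all genes at -0.35 and the dashed lines 2-fold; ribosomal proteins gather around 0.19 while the 44 ribosome biogenesis factors centre on -1.65 and the complex I to ATP synthase families stay near the dotted line or above it.

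Promoter windows are shown for 3 of the lowest biogenesis genes with a usable RefSeq window, because of the E-box share of this family. RRS1, the lowest of the family, was left out by genomic location, and RRP12 is also not shown. The windows are chr3:51941855-51942154 for RRP9, chr9:33473875-33474174 for NOL6 and chr5:176388549-176388848 for NOP16, all on the minus strand of GRCh38.p14 in RefSeq. Capitals mark ACGTG or GCGTG on either strand, and the E-box CACGTG, the site of the MYC family, contains ACGTG.
RRP9: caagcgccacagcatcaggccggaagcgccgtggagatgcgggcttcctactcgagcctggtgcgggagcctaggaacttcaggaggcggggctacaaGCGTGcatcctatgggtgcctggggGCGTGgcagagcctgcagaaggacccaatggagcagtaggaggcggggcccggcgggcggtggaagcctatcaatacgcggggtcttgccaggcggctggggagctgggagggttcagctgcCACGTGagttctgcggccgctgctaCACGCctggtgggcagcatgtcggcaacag
NOL6: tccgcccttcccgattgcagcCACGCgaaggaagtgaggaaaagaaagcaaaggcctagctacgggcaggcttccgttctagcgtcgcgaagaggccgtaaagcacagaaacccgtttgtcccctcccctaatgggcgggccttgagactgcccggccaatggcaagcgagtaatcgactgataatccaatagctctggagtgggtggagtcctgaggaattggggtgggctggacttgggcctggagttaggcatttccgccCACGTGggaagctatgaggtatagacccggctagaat
NOP16: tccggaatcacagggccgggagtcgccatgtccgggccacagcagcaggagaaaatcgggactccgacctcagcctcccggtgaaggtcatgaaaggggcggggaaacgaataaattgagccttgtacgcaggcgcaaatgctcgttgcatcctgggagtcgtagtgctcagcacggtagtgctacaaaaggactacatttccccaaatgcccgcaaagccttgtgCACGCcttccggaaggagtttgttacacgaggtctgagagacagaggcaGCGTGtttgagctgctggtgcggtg

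RRP9 held an E-box at its start and 3 further GCGTG matches. NOL6 held an E-box a few bases after its start, and NOP16 held 2 GCGTG matches and no E-box. Over the family 22 of 45 windows, or 48.9%, held CACGTG, against 7.26% of all windows and 9.57% of windows of genes past the filter. Cytosolic ribosomal proteins had it in 5.13% of windows, and RNA polymerase I and nucleolar genes in 12%. Along the whole table the share was 19.8% among genes at a log2 change of -2 or lower, 13.0% among all genes at least 2-fold lower, 8.94% within 2-fold and 9.76% among genes at least 2-fold higher. It was 11.8% among genes at 3 or higher, 22.9% among HIF-responsive genes and 14.3% among glycolytic genes, so the E-box was not limited to lower genes. The biogenesis genes are part of the lowest class, so these shares are not separate observations. The HIF core in either form was in 41 of 45 biogenesis windows, or 91.1%, so core matches were common in families of either direction.

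**Figure D4:**
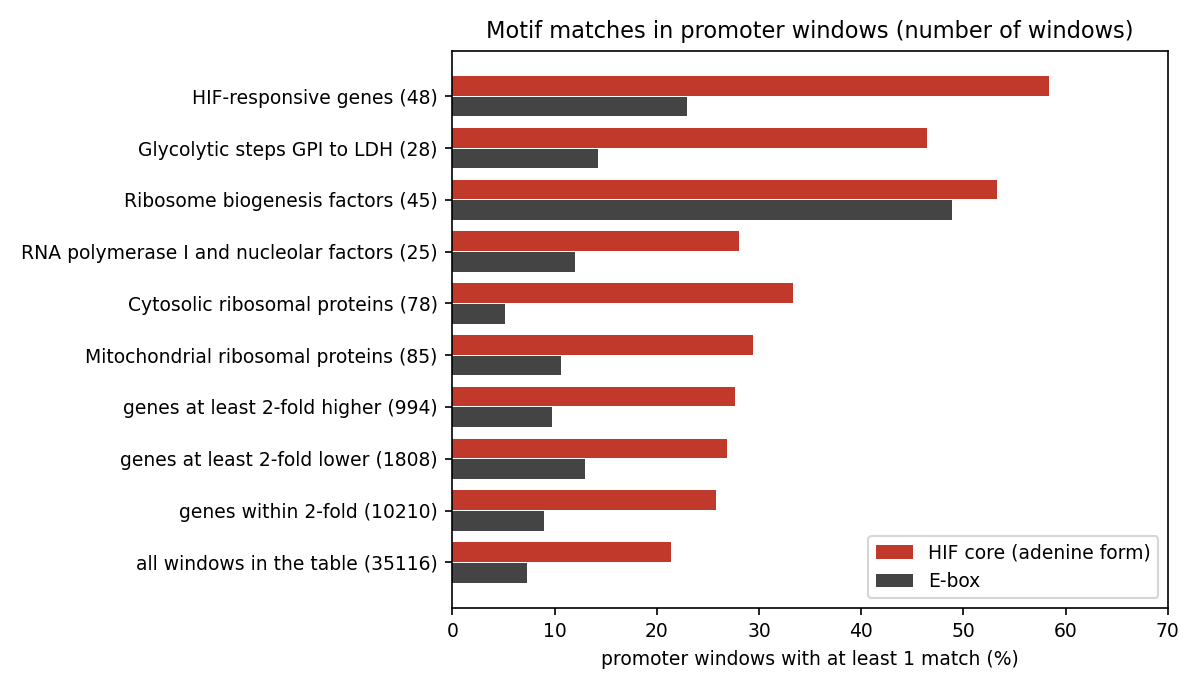
Bars give the percentage of promoter windows with at least 1 match, in red for the ACGTG form of the HIF core and in dark grey for the E-box, for gene families and for all genes by direction, with the number of windows in brackets. The E-box bar is longest for ribosome biogenesis factors at 48.9%, and the HIF core bar is longest for HIF-responsive genes at 58.3%.

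MYC, the E-box factor known to drive ribosome production, was lower at 13.3 FPKM in hypoxia against 34.4 FPKM in normoxia (-1.30, within 2-fold when centred). MXI1, which competes with MYC for MAX and represses the same sites, was at 55.97 FPKM in hypoxia against 6.14 FPKM in normoxia (2.996). MXD4 was at 17.96 FPKM in hypoxia against 6.34 FPKM in normoxia (1.37) and MXD3 at 5.78 FPKM in hypoxia against 2.20 FPKM in normoxia (1.08), both of the same repressor family. MXD1 was not higher, at 2.45 FPKM in hypoxia against 3.19 FPKM in normoxia (-0.28, above 0 when centred). MGA, also of the MAX network, was lower at 1.78 FPKM in hypoxia against 6.23 FPKM in normoxia (-1.38). Of 11 genes of the MYC and MAX network past the filter 4 were higher and 2 lower. MYCL was scarce and higher, at 3.14 FPKM in hypoxia against 0.18 FPKM in normoxia (1.81), and the partner gene MAX was at 32.4 FPKM in hypoxia against 43.3 FPKM in normoxia (-0.41). MYCN was listed at 0 in both libraries. Whether these levels bear on the biogenesis genes was not tested.

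Translation was lower in part. Of 56 initiation and elongation factor genes 17 were lower and 1 higher, with a median of -0.54, and 4 lower when centred. Over all genes 14.7% were lower as deposited and 5.73% when centred. EIF3J was at 12.7 FPKM in hypoxia against 49.03 FPKM in normoxia (-1.87) and EEF1E1, a scaffold of the synthetase complex, at 3.54 FPKM in hypoxia against 19.5 FPKM in normoxia (-2.18). EEF1A2, the neuronal and muscle elongation factor form, was the higher gene, at 6.42 FPKM in hypoxia against 0.77 FPKM in normoxia (2.07). Of 20 cytosolic tRNA synthetase genes 6 were lower and none higher. FARSB, the beta subunit gene of phenylalanyl-tRNA synthetase, was at 15.6 FPKM in hypoxia against 98.6 FPKM in normoxia (-2.58), while its partner FARSA was at 59.9 FPKM in hypoxia against 114 FPKM in normoxia (-0.91). Of 10 genes that brake translation 3 were higher and none lower. Besides DDIT4, EIF4EBP1, which restrains cap-dependent initiation, was at 469.7 FPKM in hypoxia against 117 FPKM in normoxia (1.996). SESN2, a sensor of amino acids, was at 36.9 FPKM in hypoxia against 16.5 FPKM in normoxia (1.11).

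Genes that make nucleotides were often lower. Of 25 genes of purine and pyrimidine synthesis 12 were lower and 1 higher, or 7 lower when centred. CAD, which starts pyrimidine synthesis, was at 3.08 FPKM in hypoxia against 18.4 FPKM in normoxia (-2.25) and CTPS1, which makes CTP, at 11.9 FPKM in hypoxia against 56.1 FPKM in normoxia (-2.14). GART was at 11.03 FPKM in hypoxia against 47.97 FPKM in normoxia (-2.03) and ATIC at 20.4 FPKM in hypoxia against 86.01 FPKM in normoxia (-2.02), both of the purine route. In the polyamine route 3 of 10 genes were higher and 3 lower, with a median of 0.39. The lower ones were ODC1, the first enzyme of the route, at 47.5 FPKM in hypoxia against 457 FPKM in normoxia (-3.24), AMD1 at 9.99 FPKM in hypoxia against 42.8 FPKM in normoxia (-1.99) and SRM at 86.4 FPKM in hypoxia against 213 FPKM in normoxia (-1.29, within 2-fold when centred). SAT1, which starts their breakdown, was higher at 140.3 FPKM in hypoxia against 61.4 FPKM in normoxia (1.18), and so were SMOX at 11.6 FPKM in hypoxia against 4.85 FPKM in normoxia (1.10) and, among the makers, the spermine synthase gene SMS at 527 FPKM in hypoxia against 219 FPKM in normoxia (1.26).

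Many chaperone genes of the cytosol were lower, while few genes of endoplasmic reticulum folding were called. All 8 subunit genes of the cytosolic chaperonin TRiC were at least 2-fold lower, with changes from -2.09 for CCT6A to -1.10 for CCT8 and a sum of 684 FPKM in hypoxia and 1844 FPKM in normoxia. When centred 2 of the 8 remained past 2-fold, CCT6A and CCT2. Of 27 heat shock genes 14 (51.9%) were lower and 1 (3.70%) higher, against 14.7% and 7.41% of all genes. When centred 9 were lower and 2 higher, against 5.73% and 11.9% of all genes. HSPD1, the mitochondrial chaperonin gene, was at 57.3 FPKM in hypoxia against 332 FPKM in normoxia (-2.51), and HSP90AA1 at 293 FPKM in hypoxia against 1043 FPKM in normoxia (-1.83). HSPA1B was at 23.4 FPKM in hypoxia against 118 FPKM in normoxia (-2.28), but it is a near-identical copy of HSPA1A, and the split of reads between them is uncertain. In the list of endoplasmic reticulum folding 2 of 24 (8.33%) were higher, near the 7.41% of all genes. There 1 (4.17%) was lower, against 14.7% of all genes. The lower gene was SDF2L1, at 8.76 FPKM in hypoxia against 19.98 FPKM in normoxia (-1.10, within 2-fold when centred). ERO1A, an oxidase that makes disulphide bonds, was at 152 FPKM in hypoxia against 33.7 FPKM in normoxia (2.14), and HERPUD1 at 108 FPKM in hypoxia against 51.6 FPKM in normoxia (1.06, and 0.96 under TPM). Of 46 proteasome genes 4 (8.70%) were lower and none higher, under the 14.7% and 7.41% of all genes. Of 21 nucleoporin genes 13 (61.9%) were lower as deposited and none higher, against 14.7% and 7.41% of all genes. When centred 2 were lower, against 5.73% of all genes. NUP35 was at 4.77 FPKM in hypoxia against 18.99 FPKM in normoxia (-1.79).

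The collagen matrix was a main site of higher genes. Of 44 collagen chain genes 15 passed the filter, and 10 of these were higher and none lower, with a median of 1.54. The whole list summed to 2017 FPKM in hypoxia and 447 FPKM in normoxia. COL6A2 was at 812 FPKM in hypoxia against 192 FPKM in normoxia (2.08) and COL6A1 at 551 FPKM in hypoxia against 104 FPKM in normoxia (2.40), the most abundant chains. The chains of type I collagen were at 161 FPKM in hypoxia against 35.2 FPKM in normoxia (2.16) for COL1A1 and 216 FPKM in hypoxia against 34.3 FPKM in normoxia (2.62) for COL1A2. COL5A1 was at 34.2 FPKM in hypoxia against 1.71 FPKM in normoxia (3.70) and COL7A1 at 19.7 FPKM in hypoxia against 3.37 FPKM in normoxia (2.25). The basement membrane chains COL4A1 and COL4A2 were under the filter, so the higher chains were of other types. COL1A1 and COL1A2 are also in the list of fibroblast and pericyte markers given above. They held 377 of its 438 FPKM in hypoxia and 69.5 of its 96.1 FPKM in normoxia. The higher sum of that list is therefore no separate observation, and the part of cell types in these values was not tested.

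Most enzymes that modify collagen were higher too. Of 16 past the filter 9 were higher and 1 lower, with a median of 1.19. LOX, which crosslinks collagen and elastin, was at 303 FPKM in hypoxia against 12.1 FPKM in normoxia (4.54). Its relative LOXL2 was at 442 FPKM in hypoxia against 49.8 FPKM in normoxia (3.12) and LOXL3 at 93.9 FPKM in hypoxia against 6.82 FPKM in normoxia (3.60). Of the catalytic prolyl hydroxylase subunits, P4HA1 was at 78.5 FPKM in hypoxia against 9.64 FPKM in normoxia (2.90) and P4HA2 at 161 FPKM in hypoxia against 21.3 FPKM in normoxia (2.86), while their shared partner P4HB was at 596 FPKM in hypoxia against 311 FPKM in normoxia (0.94). PLOD2, the telopeptide lysyl hydroxylase, was at 216 FPKM in hypoxia against 31.3 FPKM in normoxia (2.75), and PLOD3 was at 23.4 FPKM in hypoxia against 29.5 FPKM in normoxia (-0.32, above 0 when centred). P3H4 was the lower gene, at 3.19 FPKM in hypoxia against 8.11 FPKM in normoxia (-1.12, within 2-fold when centred). LOXL1, of the same family as LOXL2 and LOXL3, differed less, at 51.5 FPKM in hypoxia against 23.1 FPKM in normoxia (1.13).

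Other matrix genes went both ways. FN1, the fibronectin gene, was at 196 FPKM in hypoxia against 29.97 FPKM in normoxia (2.67), TGFBI at 324 FPKM in hypoxia against 34.7 FPKM in normoxia (3.19) and FBN1, a microfibril gene, at 26.7 FPKM in hypoxia against 5.42 FPKM in normoxia (2.11). NOV, a matricellular gene, was at 3.87 FPKM in hypoxia against 20.5 FPKM in normoxia (-2.14). Of 24 matrix glycoprotein genes 7 (29.2%) were higher and 4 (16.7%) lower. The lower share was near the 14.7% of all genes, while 7.41% of all genes were higher. In the plasminogen system the activator gene PLAU was at 35.8 FPKM in hypoxia against 168 FPKM in normoxia (-2.20). SERPINB2, an inhibitor gene of the system, was at 19.1 FPKM in hypoxia against 266 FPKM in normoxia (-3.73). MMP3, a matrix protease gene, was at 70.9 FPKM in hypoxia against 298 FPKM in normoxia (-2.06) and ADAMTS5 at 1.93 FPKM in hypoxia against 10.03 FPKM in normoxia (-1.91). The integrin alpha 5 gene ITGA5, part of the fibronectin receptor, was at 542 FPKM in hypoxia against 139 FPKM in normoxia (1.96), the called gene among 12 integrins. TIMP1, among the most abundant genes, was at 4627 FPKM in hypoxia against 2300.0 FPKM in normoxia (1.01, and 0.91 under TPM).

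Mesenchymal regulators differed in direction within and between families. TWIST1 was at 43.2 FPKM in hypoxia against 7.90 FPKM in normoxia (2.31), while TWIST2 was at 5.48 FPKM in hypoxia against 5.20 FPKM in normoxia (0.06, below 0 under TPM). SNAI2 was at 144 FPKM in hypoxia against 60.5 FPKM in normoxia (1.24). ZEB1 was at 1.05 FPKM in hypoxia against 7.17 FPKM in normoxia (-1.99) and ZEB2 at 19.9 FPKM in hypoxia against 10.6 FPKM in normoxia (0.85). CDH2, the N-cadherin gene, was lower at 1.54 FPKM in hypoxia against 8.74 FPKM in normoxia (-1.94). Of 9 past the filter 2 were higher and 2 lower.

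Secreted signals were called in both directions. Of 13 angiogenic genes past the filter 5 were higher and 4 lower. APLN, a vessel peptide gene, was at 41.8 FPKM in hypoxia against 1.65 FPKM in normoxia (4.01) and PGF, a VEGF-family gene, at 19.7 FPKM in hypoxia against 0.64 FPKM in normoxia (3.66). EDN1, the endothelin gene, was at 1.06 FPKM in hypoxia against 7.36 FPKM in normoxia (-2.02), and KDR, the VEGF receptor gene, at 2.20 FPKM in hypoxia against 15.2 FPKM in normoxia (-2.34). Of 18 growth factor and IGF genes 7 (38.9%) were higher and 3 (16.7%) lower, against 7.41% and 14.7% of all genes. The IGF-binding proteins made up most of the higher ones. IGFBP3 was at 524 FPKM in hypoxia against 4.19 FPKM in normoxia and IGFBP6 at 227 FPKM in hypoxia against 91.01 FPKM in normoxia (1.31). Called lower were the EGF-family ligand genes HBEGF at 14.4 FPKM in hypoxia against 76.2 FPKM in normoxia (-2.33) and EREG at 36.3 FPKM in hypoxia against 168 FPKM in normoxia (-2.18).

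Of 16 chemokine and interleukin genes 4 were higher and 8 lower. IL6 was at 264 FPKM in hypoxia against 26.7 FPKM in normoxia (3.26), and CSF3, the granulocyte colony-stimulating factor gene, at 237 FPKM in hypoxia against 1095 FPKM in normoxia (-2.21). CXCL2 was at 17.2 FPKM in hypoxia against 69.2 FPKM in normoxia (-1.95) and CXCL1 at 1.16 FPKM in hypoxia against 10.4 FPKM in normoxia (-2.41). TREM1, a receptor gene of myeloid cells, was at 91.7 FPKM in hypoxia against 0.65 FPKM in normoxia. The myeloid markers AIF1, TREM2 and P2RY12 were listed at 0 in both libraries and TYROBP, the signalling partner of TREM1, was listed at 0 in hypoxia and at 0.10 FPKM in normoxia. CSF1R of the same list passed the filter and was above 0 as given earlier, and CD68 was at 255 FPKM in hypoxia against 289.8 FPKM in normoxia (-0.19, above 0 when centred).

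**Figure D5:**
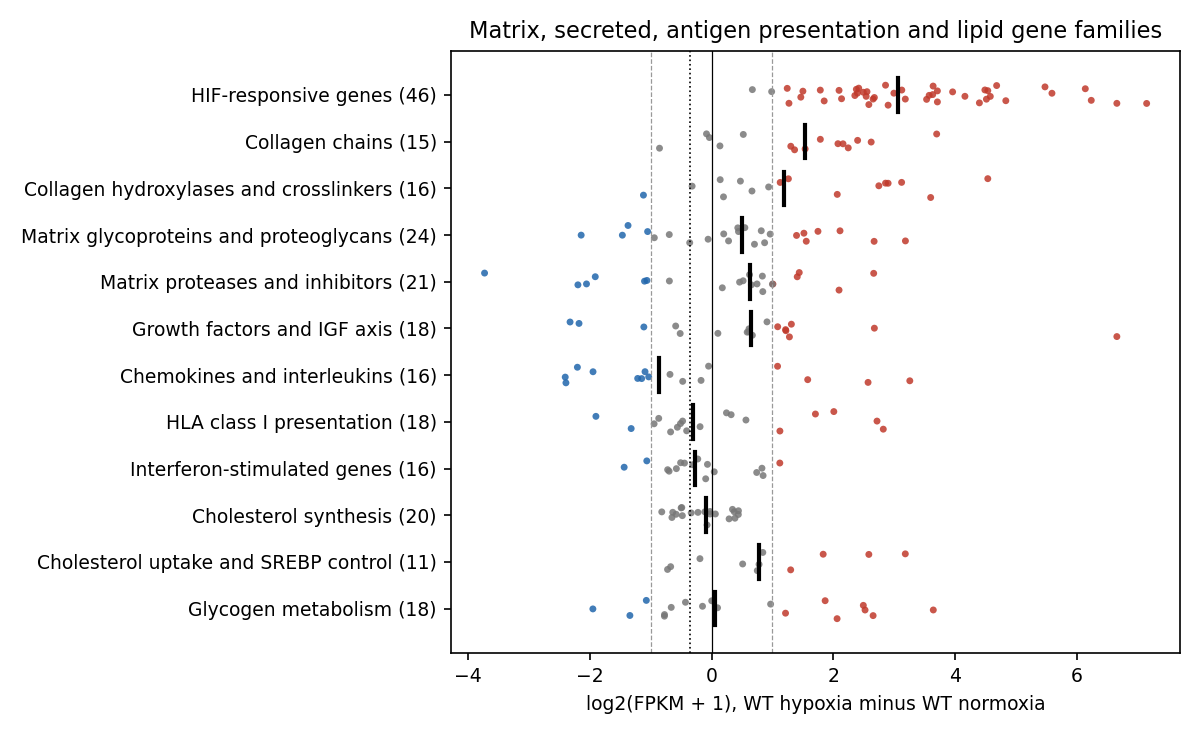
The x axis gives the change in log2(FPKM + 1), WT hypoxia minus WT normoxia, for families of HIF-responsive, matrix, secreted, antigen presentation and lipid genes, with the number of genes past the filter in brackets; colours, bars and lines are red and blue for 2-fold calls, thick bars for medians and a dotted line for the median of all genes at -0.35. HIF-responsive genes centre on 3.06 and collagen chains on 1.54, the HLA row splits into 5 red genes and a cluster near the dotted line, and cholesterol synthesis has no coloured point.

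Of 18 genes of HLA class I presentation 5 were higher and 2 lower. HLA-B was at 642 FPKM in hypoxia against 89.99 FPKM in normoxia (2.82) and HLA-C at 323 FPKM in hypoxia against 48.2 FPKM in normoxia (2.72). These genes are close paralogs, and reads shared among them make each level uncertain. HLA-E was at 156 FPKM in hypoxia against 47.2 FPKM in normoxia (1.71). B2M, the shared light chain, was at 1162 FPKM in hypoxia against 785 FPKM in normoxia (0.56). The carriers of peptides to the heavy chains were lower, with TAP1 at 7.01 FPKM in hypoxia against 19.03 FPKM in normoxia (-1.32, within 2-fold when centred) and TAP2 at 5.08 FPKM in hypoxia against 21.7 FPKM in normoxia (-1.90). The transactivator gene NLRC5 was at 2.46 FPKM in hypoxia against 4.11 FPKM in normoxia (-0.56). Few interferon-stimulated genes were called, with 1 of 16 higher and 2 lower, or 6.25% and 12.5%, near the 7.41% and 14.7% of all genes.

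In lipid metabolism the control genes differed and the sterol synthesis genes did not reach 2-fold. None of 20 cholesterol synthesis genes was called either way, with a median of -0.09 that turns when centred. Of 11 genes of uptake and SREBP control 4 were higher and none lower. INSIG2, which holds SREBP in the endoplasmic reticulum, was at 43.1 FPKM in hypoxia against 3.85 FPKM in normoxia (3.18), and VLDLR, a lipoprotein receptor gene, at 46.7 FPKM in hypoxia against 6.95 FPKM in normoxia (2.58). SREBF1 was at 32.05 FPKM in hypoxia against 8.27 FPKM in normoxia (1.83). SCD, a desaturase that uses oxygen, was at 439 FPKM in hypoxia against 35.4 FPKM in normoxia (3.60), whereas FASN was at 17.2 FPKM in hypoxia against 22.9 FPKM in normoxia (-0.39) and ELOVL5 at 14.4 FPKM in hypoxia against 54.3 FPKM in normoxia (-1.84). CPT1A, the entry enzyme of fatty acid oxidation, was at 2.38 FPKM in hypoxia against 8.10 FPKM in normoxia (-1.43). G0S2, an inhibitor of lipid breakdown, was at 5.57 FPKM in hypoxia against 18.2 FPKM in normoxia (-1.54), and the perilipin gene PLIN2 was near 0, at 0.19 FPKM in hypoxia against 0.09 FPKM in normoxia.

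Of 9 iron handling genes past the filter 1 was higher and 2 lower. TFRC, the transferrin receptor gene, was at 21.5 FPKM in hypoxia against 61.7 FPKM in normoxia (-1.48), and SLC11A2, an iron importer gene, at 4.62 FPKM in hypoxia against 16.5 FPKM in normoxia (-1.64). STEAP3, a reductase gene of transferrin iron uptake, was at 90.1 FPKM in hypoxia against 47.3 FPKM in normoxia (0.92), past 2-fold when centred. HMOX1, which frees iron from heme, was at 165 FPKM in hypoxia against 38.5 FPKM in normoxia (2.07). The ferritin chain genes summed to 10522 FPKM in hypoxia and 9421 FPKM in normoxia, a ratio of 1.12. Among the metallothioneins, close paralogs whose reads can be shared, MT3 was at 79.99 FPKM in hypoxia against 0.37 FPKM in normoxia and MT1X at 1295 FPKM in hypoxia against 299 FPKM in normoxia (2.11), while MT1E was at 269 FPKM in hypoxia against 353 FPKM in normoxia (-0.39). The zinc exporter gene SLC30A1 was lower at 2.17 FPKM in hypoxia against 7.84 FPKM in normoxia (-1.48).

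Oxygen-using dioxygenases of chromatin and RNA were called in both directions. Of 22 JmjC-domain genes past the filter 6 (27.3%) were higher and 3 (13.6%) lower. Over all genes 7.41% were higher and 14.7% lower, so the lower share was near that of all genes. When centred 8 were higher and 1 lower, against 11.9% and 5.73% of all genes. JMJD6 was at 94.3 FPKM in hypoxia against 32.7 FPKM in normoxia (1.501) and KDM3A, a histone H3 lysine demethylase gene, at 36.5 FPKM in hypoxia against 12.6 FPKM in normoxia (1.47). RIOX2, a ribosomal oxygenase of the nucleolus, was the lowest at 7.36 FPKM in hypoxia against 35.4 FPKM in normoxia (-2.12). ALKBH5, the RNA demethylase gene that the series is about, was at 83.5 FPKM in hypoxia against 39.6 FPKM in normoxia (1.06, and 0.96 under TPM). ALKBH2, a DNA repair member of the same family, was at 5.24 FPKM in hypoxia against 17.7 FPKM in normoxia (-1.59), and TET3 at 4.72 FPKM in hypoxia against 1.98 FPKM in normoxia (0.94).

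Of 17 clock genes past the filter 6 (35.3%) were higher and 3 (17.6%) lower, against 7.41% and 14.7% of all genes. Repressors were called both ways. BHLHE40 was at 231 FPKM in hypoxia against 44.3 FPKM in normoxia (2.35), BHLHE41 at 94.7 FPKM in hypoxia against 17.4 FPKM in normoxia (2.38) and NFIL3 at 38.6 FPKM in hypoxia against 5.17 FPKM in normoxia (2.68). CRY1 was at 1.77 FPKM in hypoxia against 5.35 FPKM in normoxia (-1.20, within 2-fold when centred) and NR1D2 at 2.46 FPKM in hypoxia against 8.36 FPKM in normoxia (-1.44). PER1 was at 8.81 FPKM in hypoxia against 3.76 FPKM in normoxia (1.04), PER2 at 2.79 FPKM in hypoxia against 2.63 FPKM in normoxia (0.06, below 0 under TPM) and PER3 at 0.71 FPKM in hypoxia against 3.39 FPKM in normoxia (-1.36), so the period genes did not share a direction. ARNTL, the clock activator gene, was at 12.02 FPKM in hypoxia against 5.18 FPKM in normoxia (1.08), and its partner CLOCK at 2.35 FPKM in hypoxia against 5.32 FPKM in normoxia (-0.92).

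Most cell cycle genes lay below 0. Of 38 G1/S and replication genes 20 were lower and none higher, or 9 lower when centred. Of 30 G2/M genes 9 were lower and none higher, or 2 lower when centred. Over all genes 14.7% were lower as deposited and 5.73% when centred, and the centred G2/M count lay near that share. CCNE1, the cyclin of S phase entry, was at 3.88 FPKM in hypoxia against 16.5 FPKM in normoxia (-1.84), UHRF1 at 13.97 FPKM in hypoxia against 45.9 FPKM in normoxia (-1.65) and CCNB1, the mitotic cyclin, at 42.8 FPKM in hypoxia against 101 FPKM in normoxia (-1.22, within 2-fold when centred). Every one of the 30 G2/M genes had a change below 0, and 2 of them lay above the median gene. Of the inhibitors of cyclin-dependent kinases, CDKN1B was at 23.4 FPKM in hypoxia against 9.85 FPKM in normoxia (1.17) and CDKN2D at 31.6 FPKM in hypoxia against 10.02 FPKM in normoxia (1.56), besides CDKN1C above. CDKN1A was at 363 FPKM in hypoxia against 196 FPKM in normoxia (0.89), past 2-fold when centred, and CDKN2A and CDKN2C were listed at 0 in both libraries. Of 20 homologous recombination and Fanconi genes 8 were lower and none higher, with 1 lower when centred, near the 5.73% of all genes. That gene was PALB2, at 3.31 FPKM in hypoxia against 11.01 FPKM in normoxia (-1.48).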

How the data were processed

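Gene expression was measured by RNA-seq of total RNA, taken with Trizol and made into libraries with an NEBNext Ultra RNA kit, per the labels' protocols. The authors deposited FPKM values for the WT pair in 1 gene table, rounded to 0.01, per the file headers. The submitters' processing notes name hg19. The aligner, the counting tool, the use of strand and the treatment of shared reads are not stated in the sources used here, and the read depth of both WT libraries is unknown. A table of the shRNA pair was used only for its spread of changes and for gene lengths, which matched 99.2% of genes past the filter. FPKM were not rescaled, and log2(FPKM + 1) in hypoxia minus normoxia was computed and described where the mean of both libraries reached 1 FPKM. With 1 library per group no test was run, and calls rest on a 2-fold size rule.

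The gene sets were 81 lists, of which 78 had at least 3 genes past the filter, and the members and lists were chosen with earlier results of these data known. A list of noncoding RNAs matched no row and was not analysed here. Named genes were the 15 highest and 15 lowest changes at a mean of at least 5 FPKM, the 6 members of each list that differed most, members of lists of at most 20 genes, the 10 highest levels in each library, the 10 largest linear differences each way, and genes at 5 FPKM or more in 1 library and 0.1 or less in the other. Genes outside this rule are marked where named, and a few genes that the rule picks are not reported here. Promoter windows came from RefSeq on GRCh38.p14, matched by symbol for 8835 of 11050 genes (80.0%), and some genes had several windows. Motifs were searched on both strands. Values were recomputed with the pseudocount at 0.1 FPKM, with the filter removed or set to 5 FPKM, after centring on the median gene, in TPM, and with thresholds of 1.5-fold and 3-fold. The code was tested on simulated data. Computation used numpy 2.4.6 and pandas 2.3.3 in Python 3.11.15, and plots used matplotlib 3.10.9.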

Additional observations from a re-analysis of the deposited data

How the results depend on the processing

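No paired analysis was possible because each group had 1 library, and no replicate could be left out for the same reason. The count of higher genes was 819 as deposited, 1317 when centred, 1461 at 1.5-fold and 370 at 3-fold. The count of lower genes was 1628 as deposited, 633 when centred, 3906 at 1.5-fold and 340 at 3-fold. No list median that was past 2-fold changed sign under the alternatives. Medians that moved by over 1.5-fold at a filter of 5 FPKM were those of glucose transporters and hexokinases (2.09), glycogen metabolism (1.42), collagen chains (2.25) and circadian clock genes (1.08). Without a filter, they were those of fructose 2,6-bisphosphate enzymes (-0.0653), collagen chains (0.0816), chemokines and interleukins (-0.11), microglia markers (0), endothelial markers (0.0142) and fibroblast and pericyte markers (0.71). Endothelial markers were at 1.72 with a pseudocount of 0.1 FPKM, and fibroblast and pericyte markers at 1.02 under TPM with its own filter. The genes that pass differ between filters by construction. Of 701 named genes with a value, 347 were past 2-fold, of which 75 lost the call when centred, 7 under TPM and 0 with a pseudocount of 0.1 FPKM, while 44 gained one when centred, 32 under TPM and 36 with that pseudocount. Without a known depth, small differences of scarce genes cannot be given a counting error.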

Other observations

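The lists of amino acid response and autophagy genes were not described above, apart from single members such as DDIT4 and SESN2. Of 24 ATF4 and amino acid response genes 9 were at least 2-fold higher and 2 lower. NUPR1, a stress-induced chromatin protein gene, was at 94.6 FPKM in hypoxia against 21.5 FPKM in normoxia (2.09), and SLC7A5, a large amino acid transporter gene, at 86.5 FPKM in hypoxia against 33.7 FPKM in normoxia (1.33). Of 27 autophagy genes 4 were higher and 2 lower. The kinase gene ULK1, which starts autophagy, was at 12.6 FPKM in hypoxia against 4.25 FPKM in normoxia (1.38), and SQSTM1, the cargo receptor gene, at 187 FPKM in hypoxia against 461 FPKM in normoxia (-1.30, within 2-fold when centred). Of 32 splicing factor genes of the SR and hnRNP families 6 (18.75%) were lower and none higher, against 14.7% and 7.41% of all genes. When centred 2 were lower, near the 5.73% of all genes. HNRNPF was at 41.1 FPKM in hypoxia against 131 FPKM in normoxia (-1.65). Among early-response genes EGR1 and EGR2 went opposite ways, with EGR1 at 8.03 FPKM in hypoxia against 25.5 FPKM in normoxia (-1.55) and EGR2 at 8.99 FPKM in hypoxia against 1.03 FPKM in normoxia (2.30).

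The share of called genes varied with level and with gene length. In the most abundant of 10 bins of mean FPKM, 12.04% of genes were higher and 8.33% lower, and in the fourth bin, from 5.54 to 7.97 FPKM, 6.17% were higher and 19.7% lower. In the bin of shortest genes, up to 2140 bases, 10.6% were higher and 12.8% lower, and in the bin of longest genes, from 10621 bases, 5.11% were higher and 12.2% lower. The part of level and length in the family values was not tested.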
